A study of Mus musculus with 10 samples.

Results

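Cytosolic ribosomal proteins are the protein components of the ribosomes that translate nuclear messages in the cytoplasm. Members were taken by gene symbol from the platform annotation of the array: every feature that named exactly 1 symbol of the form Rpl or Rps followed by a digit, or Rplp0 to Rplp2, leaving out the Rps6k kinases, Rps19bp1 and symbols ending in -ps. This gave 43 genes on 49 features, out of 30142 genes with a single-gene feature. Where a gene had more than 1 feature, the feature with the highest mean over all 10 arrays stood for it. Of the 43 genes, 41 were bright enough to be tested, among 17800 genes tested in all. The other 2, Rpl39l and Rpl3l, lay below the floor of 5.24, the median of all features' mean log2 signals.

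The genes were 18 proteins of the large (60S) subunit, 14 of the small (40S) subunit, 6 paralogs and 5 symbols of a retrocopy type (Rpl32l, Rpl6l, Rps3a2, Rps3a3 and Rps23rg1). The 18 and the 14 together are called the 32 core subunits below. RefSeq lists Rpl6l as a pseudogene, and no gene ID was found for Rps3a2 and Rps3a3. The set is an incomplete view of the ribosome. Of 87 protein-coding symbols of this form in RefSeq, 40 had a single-gene feature here, and 43 ribosomal protein symbols appeared only on the 53 features that name several symbols. Rplp1, Rplp2, Rpl3, Rpl5, Rpl10, Rpl36a, Rpl36al, Rps4l, Rps6 and Rps27 were among the genes with no single-gene feature and are not analysed here.

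The cells were 4T1, an established mouse mammary carcinoma line, cultured for 5 days after 50000 cells were placed in collagen gels of 2 mg/mL (low density, LD) or 3.5 mg/mL (high density, HD). The labels give no other treatment and no genetic change, and cells on plastic or without collagen were not analysed here. Each group had 5 samples, each on 1 Affymetrix MTA 1.0 array, and the values are log2 signals after RMA, the authors' array normalization. The labels do not state whether replicates were separate cultures, so the spread behind the p-values is that of these samples and could be technical. In bulk RNA of this kind, a change in the share of some cells cannot be told apart from a change in RNA per cell.

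A ribosome carries 1 copy of nearly every ribosomal protein, and cells make the proteins in matched amounts, largely by controlling translation of their messages. Those messages begin with a 5′ terminal oligopyrimidine (TOP) tract, an unbroken stretch of C and U at the cap, through which mTORC1 and the RNA-binding protein Larp1 set their translation. The genes are transcribed by RNA polymerase II, Myc is a known activator of many of them, and free ribosomal proteins, Rpl5 and Rpl11 above all, bind the p53 ligase Mdm2 when assembly of the ribosome fails. Because they are so strongly expressed, these genes have left large numbers of processed pseudogenes in the mouse genome, whose sequences array probes can share.

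The start regions of the genes with the highest and the lowest change are shown for the runs of C and T they hold; some of these runs end before the start and so lie outside the transcript. Below are the 30 bases around the transcription start in RefSeq (GRCm38.p6), 15 before and 15 from the start on, 5′ to 3′ on the gene's strand, with the longest unbroken run of C and T in capitals. They belong to the 6 genes with the highest change and to the 4 of the 6 with the lowest change that the promoter table lists.
Rps27l, start 1 (chr9:66946071-66946100, plus strand): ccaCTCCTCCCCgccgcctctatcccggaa
Rps27l, start 2 (chr9:66946398-66946427, plus strand): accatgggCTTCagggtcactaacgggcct
Rpl7l1 (chr17:46782642-46782671, minus strand): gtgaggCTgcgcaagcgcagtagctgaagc
Rpl27 (chr11:101442230-101442259, plus strand): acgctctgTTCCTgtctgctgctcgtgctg
Rps10 (chr17:27635230-27635259, minus strand): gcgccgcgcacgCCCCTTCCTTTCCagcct
Rpl31 (chr1:39367836-39367865, plus strand): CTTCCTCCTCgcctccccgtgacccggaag
Rpl35 (chr2:39005117-39005146, minus strand): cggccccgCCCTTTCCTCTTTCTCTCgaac
Rpl4 (chr9:64173372-64173401, plus strand): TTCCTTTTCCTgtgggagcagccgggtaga
Rpl32l (chr10:20208424-20208453, plus strand): aaataaaatgaccagCTTCTTCCTTggtgc
Rps28 (chr17:33824548-33824577, minus strand): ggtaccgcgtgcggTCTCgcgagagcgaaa
Rpl22, start 1 (chr4:152325711-152325740, plus strand): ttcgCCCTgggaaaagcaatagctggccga
Rpl22, start 2 (chr4:152324421-152324450, plus strand): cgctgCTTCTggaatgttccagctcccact

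Within the 30 bases shown, Rpl35 had the longest run, 18 bases, and Rps10 followed with 13, whereas the longest run at Rpl7l1 was 2 bases. The runs of Rpl31 and Rpl4 reached the first base shown and were cut there, at 10 and 11 bases. From 20 bases before to 20 after the start they were 13 bases at Rpl31 and 14 at Rpl4. The signal of Rpl4 hardly moved between the gels, so a run was present at both ends of the order of change. Over the core subunits, 27 genes had 33 RefSeq promoters. A run of at least 7 C or T letters on the gene's strand, from 20 bases before to 20 after the start, was found in 19 of the 33 (57.6%), against 24.0% of 21263 promoters of protein-coding genes. Short motifs were searched over each whole promoter sequence, which is longer than this window. The letters CCGGAA, the core of sites bound by ETS factors such as Gabpa, stood on either strand in 16 (48.5%) against 18.7%. TATAAA stood on the gene's strand in 3 (9.09%) against 8.26%. Promoters on chromosome 18 were not counted in any of these shares. The runs and CCGGAA can share letters, since CCGGAA on the other strand reads TTCCGG. As a description, the 18 core genes with a run had a median log2 change of 0.11 (0.0045 to 0.17). The 9 without one had a median of 0.054 (-0.038 to 0.26), so the ranges overlapped. The changes of Rpl12, Rpl27, Rpl31, Rpl35, Rpl41 and Rpl7a came from features on another chromosome than the gene's (described below). Whether these changes belong to transcripts from the starts examined here was not tested.

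In the dense gels, the ribosomal protein genes as deposited were slightly higher as a group. This was not so after the arrays were rescaled on their control features, where the median turned to -0.060 (described below). After quantile normalization 20 of the 41 rose, against 42.9% of all genes. The medians there were 0.103 and 0.090, so the set stood close to the background. As deposited, 22 of the 41 genes rose (53.7%, limma adjusted p 2.3e-07 to 0.047), none fell and 19 were not called. Over all genes tested, 31.4% rose and 19.5% fell. Without adjustment, 1 gene, Rpl6l, was lower at p under 0.05 and 25 were higher. The median log2 change was 0.10 against 0.055 for all genes tested, and 38 genes (92.7%) lay above 0 against 63.0% of all genes. Without regard to sign, the median size of change was 0.10 against 0.12 for all genes tested. The larger share called higher thus did not come with a larger typical size of change. The groups did not overlap for 17 genes (41.5%), against 36.7% of all genes, a share close to the background. No gene passed 1.5-fold with a called change, where 2.34% of all genes did: the 22 folds ran from 1.06 to 1.47, and 20 of them stayed below 1.2.

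The calls came from both subunits. Of the 18 large-subunit genes 9 rose, with a median log2 change over the 18 of 0.095, and of the 14 small-subunit genes 9 rose, with a median of 0.11. The difference between the subunits was not tested. For the 19 genes not called, log2 changes ran from -0.095 to 0.10 and their 95% intervals from -0.185 to 0.21, so that changes of the size seen in the called genes lie within those intervals for part of them. The genes were measured tightly: the median SD within a group was 0.052 log2 units, against 0.073 over all genes tested. The median SE of a change was 0.038 against 0.046, and the median signal 10.0 against 7.53.

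**Figure D1:**
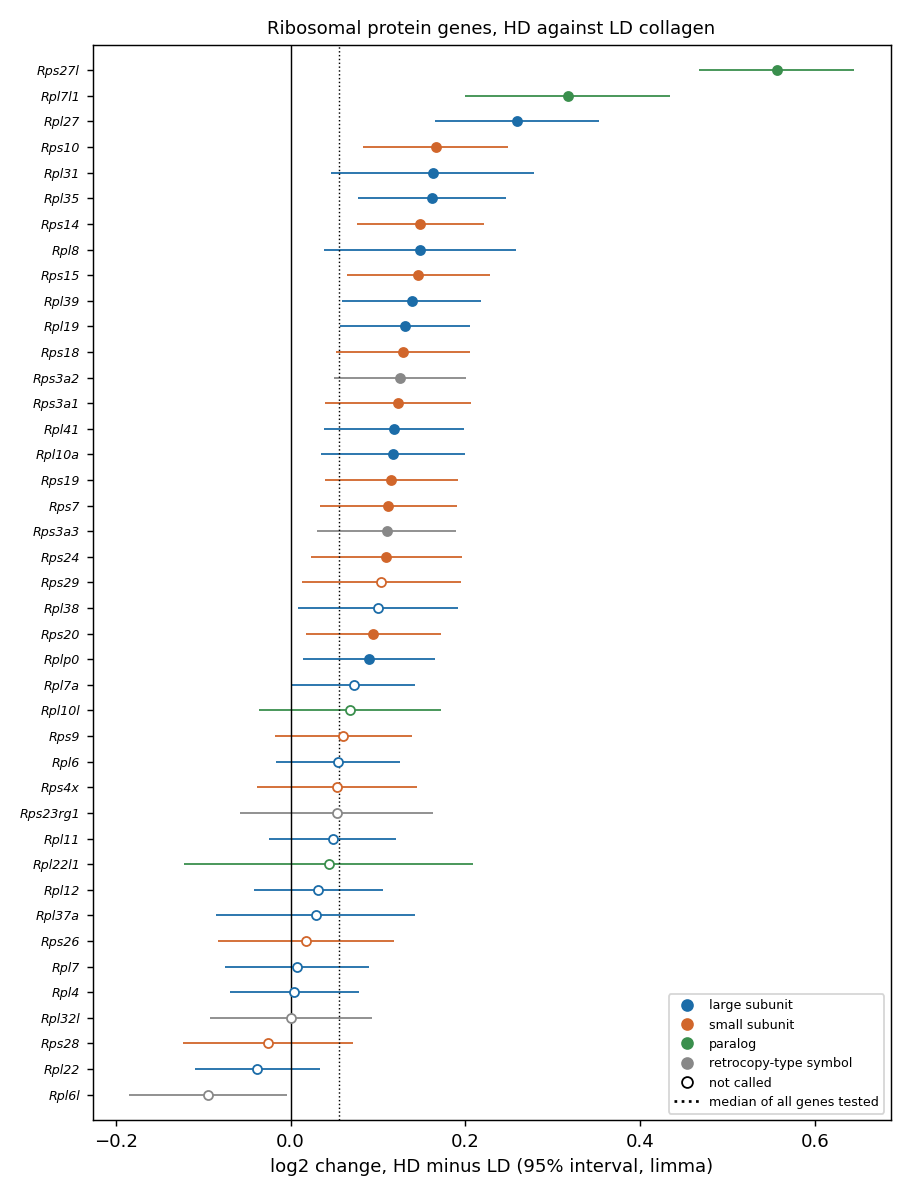
Log2 change from LD to HD for the 41 tested genes, sorted, with 95% intervals from limma (5 arrays a group); filled points passed an adjusted p of 0.05, open points did not, colours give the class and the dotted line is the median of all genes tested. Rps27l stands alone at 0.56, 38 genes lie to the right of 0, and Rpl6l, Rpl22 and Rps28 lie to the left; after control scaling 17 genes lay above 0.

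Rps27l, a paralog of the small-subunit protein Rps27 known in human cells as a p53 target, changed most. Its signals were 8.50, 8.58, 8.53, 8.49 and 8.56 on the LD arrays and 9.15, 9.19, 9.04, 9.07 and 9.01 on the HD arrays. Every HD array lay above every LD array, with means of 8.54 ± 0.037 in LD and 9.09 ± 0.076 in HD (SD, n = 5 each). The log2 change was 0.56 ± 0.041 (SE), a 1.47-fold rise (limma adjusted p = 2.3e-07), higher than 99.0% of the changes of all genes tested. It was 0.55 after quantile normalization and 0.53 after the scaling on control features described below, and 0.53 to 0.58 with any 1 array left out. Its partner Rps27 had no single-gene feature, so the pair could not be set side by side. Mdm2, a p53 target and the ligase that Rps27l is reported to bind, was at -0.094 ± 0.038 (SE) with an adjusted p of 0.053, and Trp53 had no single-gene feature.

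Rpl7l1, a relative of Rpl7 whose yeast counterpart works in assembly of the large subunit, came next. It read 9.54, 9.64, 9.67, 9.56 and 9.73 on the LD arrays and 9.99, 10.12, 9.85, 9.86 and 9.92 on the HD arrays. The groups were separate, with means of 9.63 ± 0.078 in LD and 9.95 ± 0.11 in HD and a change of 0.32 ± 0.055 (1.25-fold, adjusted p = 2.8e-04). Rpl7 itself, which sits in the mature large subunit, read 8.76, 8.79, 8.79, 8.70 and 8.71 on the LD arrays and 8.81, 8.81, 8.67, 8.75 and 8.75 on the HD arrays. Its LD and HD arrays overlapped, and its change was 0.0070 ± 0.038 (adjusted p = 0.89, 95% interval -0.075 to 0.090). The assembly-factor relative and the structural protein thus gave different calls, though the difference between them was not tested.

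Of the other paralogs, Rpl22l1, which can replace Rpl22 in ribosomes, read 7.36, 7.45, 7.41, 7.26 and 7.25 on the LD arrays and 7.50, 7.61, 7.11, 7.33 and 7.39 on the HD arrays. It scattered more than its relatives, at 7.35 ± 0.090 in LD and 7.39 ± 0.19 in HD, and was not called (0.043 ± 0.077, adjusted p = 0.66). Rpl22, an RNA-binding large-subunit protein needed in lymphocyte development, read 8.77, 8.78, 8.76, 8.70 and 8.74 on the LD arrays and 8.74, 8.71, 8.69, 8.67 and 8.76 on the HD arrays. Those groups overlapped, and the change was -0.038 ± 0.033 (adjusted p = 0.35, 95% interval -0.11 to 0.033). Rpl10l, a retrogene known from testis, was not called at 5.95 ± 0.024 in LD and 6.01 ± 0.11 in HD (adjusted p = 0.25), but was higher without HD replicate 2 (0.11, adjusted p = 0.030). The testis paralog Rpl39l (5.06 ± 0.11 in LD and 5.08 ± 0.043 in HD) and the muscle paralog Rpl3l (4.96 ± 0.056 in LD and 5.08 ± 0.056 in HD) lay under the floor and were not tested.

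Among the large-subunit proteins, Rpl27 changed most. Its feature read 11.10, 11.06, 11.03, 11.05 and 11.01 on the LD arrays and 11.32, 11.45, 11.30, 11.25 and 11.23 on the HD arrays, with separate groups (11.05 ± 0.033 in LD and 11.31 ± 0.089 in HD), and the change was 0.26 ± 0.044 (adjusted p = 2.3e-04). A dimmer feature of the same gene, at 7.50 in LD and 7.74 in HD, gave 0.24. After control scaling Rpl27 was at 0.029 and not called. Rpl35, which lies at the mouth of the tunnel through which the new chain leaves, read 12.46, 12.41, 12.43, 12.35 and 12.45 on the LD arrays and 12.57, 12.69, 12.52, 12.55 and 12.57 on the HD arrays. No HD array fell below an LD array, and it rose by 0.16 ± 0.039 (adjusted p = 0.0037), with 0.19 on its other feature, but it was lower after control scaling (-0.18).

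Rpl31, another protein at the tunnel exit, read 6.61, 6.37, 6.62, 6.49 and 6.55 on the LD arrays and 6.66, 6.72, 6.61, 6.64 and 6.82 on the HD arrays. A single HD array lay below the highest LD array, so the groups touched. The rise was 0.16 ± 0.054 (adjusted p = 0.023), and without LD replicate 2 or HD replicate 5 it lost its call, at adjusted p up to 0.060. Rpl39, a small protein that lines the tunnel, rose by 0.14 from 9.31 ± 0.047 in LD to 9.45 ± 0.047 in HD, with no overlap (adjusted p = 0.0068). The remaining large-subunit rises were Rpl8 at the peptidyl transferase centre by 0.15, Rpl19 by 0.13, Rpl41 by 0.12, Rpl10a by 0.12 and Rplp0 by 0.089. Rpl8 lost its call without LD replicate 1 or 4 or HD replicate 2 or 3, and Rpl10a without LD replicate 2, and both lost it after quantile normalization (adjusted p = 0.058 and 0.081). After control scaling Rpl31 was higher (0.32), Rpl39, Rpl8 and Rpl10a were not called, and Rpl19, Rpl41 and Rplp0 were lower.

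Rplp0 anchors the P stalk, the arm that recruits elongation factors. It read 11.10, 11.12, 11.14, 11.09 and 11.16 on the LD arrays and 11.19, 11.26, 11.26, 11.20 and 11.15 on the HD arrays. A single HD array fell below the highest LD array, and the change of 0.089 ± 0.035 was the smallest of all that passed (adjusted p = 0.047). It lost its call in 9 of 10 fits with 1 array left out (adjusted p 0.028 to 0.10) and with the replicate number as a block. It was also not called after quantile normalization (0.049, adjusted p = 0.28) or median centring (adjusted p = 0.072). Rpl12, which sits at the base of the same stalk, was not called at 0.032 ± 0.034. Rpl11, one of the Mdm2 binders, read 7.35, 7.36, 7.36, 7.35 and 7.30 on the LD arrays and 7.41, 7.37, 7.45, 7.38 and 7.35 on the HD arrays. The overlap was small and the change of 0.048 ± 0.034 was not called (adjusted p = 0.24).

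Rpl4, whose extension lines the exit tunnel, hardly differed between the gels as deposited. It read 13.16, 13.24, 13.18, 13.11 and 13.15 on the LD arrays and 13.18, 13.19, 13.13, 13.15 and 13.20 on the HD arrays. Both groups averaged 13.17, and the change of 0.0045 ± 0.035 had a 95% interval of -0.070 to 0.079, which leaves out the rises of Rpl27 and Rpl35. Rpl37a (0.029), Rpl6 (0.054), Rpl7a (0.072) and Rpl38 (0.10), a protein known for its part in translating Hox messages, were not called either. At Rpl7a and Rpl38 the groups did not overlap although the limma adjusted p was 0.079 and 0.063.

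**Figure D2:**
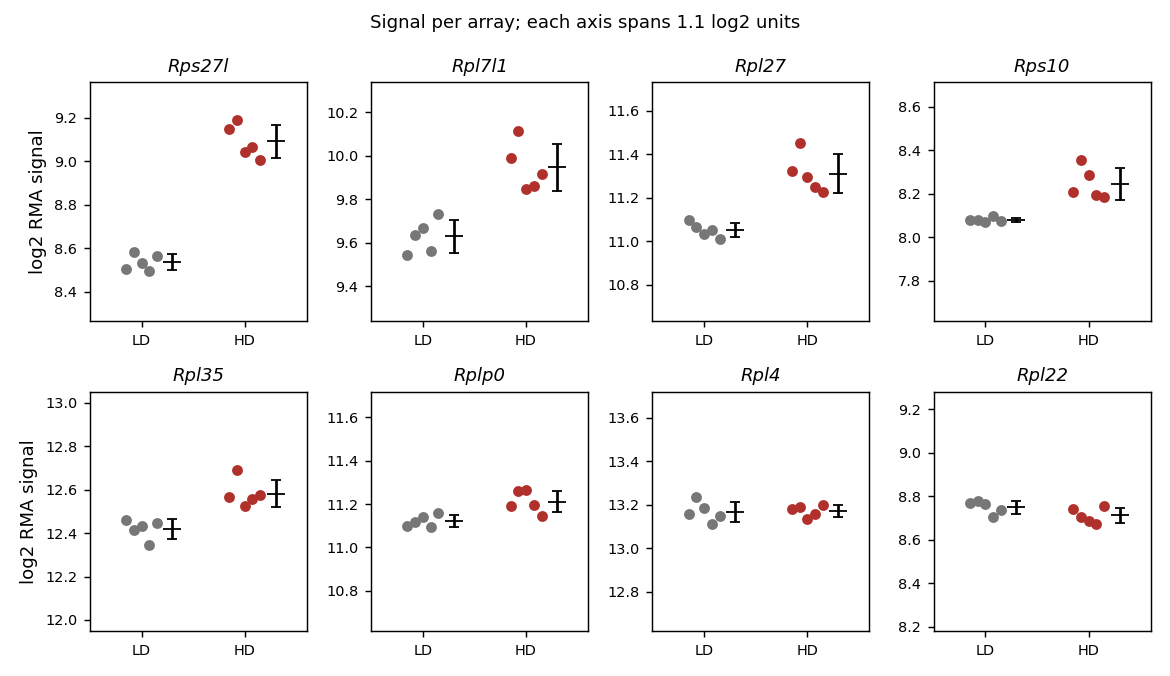
Log2 RMA signal of 8 genes on each of the 5 LD (grey) and 5 HD (red) arrays, with mean and SD beside each group. The HD arrays of Rps27l, Rpl7l1, Rpl27, Rps10 and Rpl35 lie above all LD arrays, while those of Rplp0, Rpl4 and Rpl22 overlap with LD. After control scaling Rpl27 was no longer called and Rpl35, Rplp0 and Rpl4 were lower.

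In the small subunit, Rps10, a protein on the messenger entry side that Zfp598 marks with ubiquitin on collided ribosomes, changed most. It read 8.08, 8.08, 8.07, 8.10 and 8.07 on the LD arrays and 8.21, 8.36, 8.28, 8.20 and 8.18 on the HD arrays. The LD arrays (SD 0.0097) lay close together and all HD arrays above them, a rise of 0.17 ± 0.039 (adjusted p = 0.0028). Zfp598 itself rose by 0.33 (adjusted p = 2.2e-04). Rps19, the protein most often mutated in Diamond-Blackfan anaemia, read 7.69, 7.72, 7.68, 7.67 and 7.74 on the LD arrays and 7.85, 7.85, 7.83, 7.81 and 7.73 on the HD arrays. A single HD array lay just under the highest LD array, and the rise was 0.12 ± 0.036 (adjusted p = 0.015).

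Rps14, the small-subunit protein lost in 5q- syndrome, rose from 7.36 ± 0.016 in LD to 7.51 ± 0.047 in HD without overlap (0.15 ± 0.034, adjusted p = 0.0024). Rps15 (0.15), Rps18 (0.13), Rps3a1 (0.12), Rps7 (0.11), Rps24 (0.11) and Rps20 (0.094) also rose. Of these, Rps24 lost its call in 6 and Rps20 in 8 of 10 fits with 1 array left out. Both lost it after median centring, and Rps20 also after quantile normalization (0.046, adjusted p = 0.26). After control scaling Rps14, Rps18, Rps10 and Rps19 were higher, Rps15, Rps20 and Rps24 were not called, and Rps3a1 and Rps7 were lower. Rps29 at 0.10 just missed the threshold (adjusted p = 0.055; 0.021 without HD replicate 5), and Rps4x (0.053) and Rps9 (0.060) were not called.

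Rps26 and Rps28, which lie at the messenger exit, were not called. Rps26 read 13.15, 13.09, 13.15, 12.96 and 13.09 on the LD arrays and 13.17, 13.19, 13.01, 13.05 and 13.12 on the HD arrays, with full overlap and a change of 0.017 ± 0.047 (adjusted p = 0.78). Its loader Tsr2 rose by 0.31 (adjusted p = 5.7e-04). Rps28 read 8.01, 7.92, 7.96, 7.94 and 7.93 on the LD arrays and 7.98, 8.06, 7.88, 7.90 and 7.82 on the HD arrays, again overlapping, and its change was -0.026 ± 0.045 (95% interval -0.12 to 0.071).

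The 5 retrocopy-type symbols did not move together. Rps3a2 rose by 0.13 and Rps3a3 by 0.11, beside 0.12 for Rps3a1, which they are named after; all 3 were lower after control scaling. Rps3a3 lost its call without LD replicate 4 or 5 or HD replicate 5, and after quantile normalization or median centring. Rpl6l read 10.26, 10.22, 10.26, 10.30 and 10.24 on the LD arrays and 10.17, 10.02, 10.22, 10.20 and 10.20 on the HD arrays, and its change of -0.095 ± 0.042 was the lowest of the 41 genes (adjusted p = 0.075). The highest HD array met the lowest LD array at 10.22 and the rest lay below, while Rpl6, which it is named after, was at 0.054. Rpl32l read 12.19, 12.23, 12.20, 12.06 and 12.13 on the LD arrays and 12.16, 12.23, 12.06, 12.17 and 12.20 on the HD arrays and was not called (0.00034 ± 0.043, adjusted p = 0.995), and Rps23rg1 was not called (0.053).

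Of the 32 core genes, 6 were represented by a feature whose identifier names another chromosome than RefSeq gives for the gene: Rpl12, Rpl27, Rpl31, Rpl35, Rpl41 and Rpl7a. Of these 6, 4 rose, with a median log2 change of 0.14, and of the 26 on their own chromosome 14 rose, with a median of 0.10. With features on the gene's own chromosome only, an alternative chosen after the data were seen, 20 of 37 genes rose. Rpl12, Rpl31, Rps3a2 and Rps3a3 were not tested there. Rps29 gained a call on the same feature as before, since the fit and adjustment then ran over 13955 genes. Rpl41 then rose by 0.23 in place of 0.12. Which transcripts such features measure was not tested.

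Within a group, the core genes varied together from array to array. Over the 10 arrays, deviations from the group mean had a median correlation of 0.42 over pairs of core genes, and 83.1% of pairs were above 0, as a description of arrays that share their normalization. HD replicate 2 held 30 of 32 core genes above their HD mean, by 0.069 log2 units on average. HD replicate 4 held 1 of 32 above it, and LD replicate 4 held 5 of 32 above the LD mean. The mean over the core genes was 10.10 ± 0.020 in LD (10.07 to 10.12) and 10.2 ± 0.043 in HD (10.16 to 10.26), so the groups were separate. Without HD replicate 2, 19 of 41 genes rose.

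The size and, for many genes, the direction depended on how the arrays were scaled. The array carries features named as negative and positive controls. What they measure is not stated in the sources used here, so scaling on them is only an alternative. The negative controls had a median of 5.67 ± 0.052 in LD against 5.42 ± 0.12 in HD, and the positive controls 9.21 ± 0.011 against 9.28 ± 0.045, so their span was wider in HD (3.86 against 3.55). Features named as background moved the other way from the negative controls, at 3.47 in LD and 3.63 in HD. The median over transcript features was 5.165 in LD and 5.166 in HD. When each array was rescaled linearly to equal control medians, 9 of 41 genes were higher and 15 lower, with a median log2 change of -0.060. Over all genes, 49.4% were then higher and 19.1% lower, with a median of 0.13. The mean over the core genes became 10.175 ± 0.032 in LD and 10.13 ± 0.028 in HD, and the groups overlapped.

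By construction, this rescaling lowers bright HD features and raises dim ones. The 16 brighter core genes (mean signal 10.23 to 13.17) lay above the positive control medians, which averaged 9.21 in LD and 9.28 in HD. Among these 16 the rescaling left 0 higher and 11 lower by limma, with a median of -0.15, where 10 rose as deposited. Among the 16 dimmer ones (6.61 to 10.01) it left 6 higher and none lower, with a median of 0.065. Across the 32 core genes, which are not independent replicates, the correlation of change with signal went from 0.036 (Pearson) and -0.041 (Spearman) as deposited to -0.93 and -0.945. Over all 17800 genes Spearman's value went from 0.040 to -0.55. Rpl4 moved to -0.39 and Rps26 to -0.38 under it, both lower.

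Quantile normalization of the deposited values gave 20 higher and 1 lower, Rpl6l at -0.14, with a median of 0.10 (42.9% and 16.6% of all genes, whose median was 0.090). Median centring gave 18 higher and none lower, with a median of 0.10 (30.5% and 18.4%). The 7 genes called higher as deposited and under all 3 scalings were Rps27l, Rpl7l1, Rps10, Rpl31, Rps14, Rps18 and Rps19. Their mean signals ran from 6.61 to 9.79, below those of the brighter core genes, none of which control scaling left higher. Membership of this list thus depends in part on signal. On this list, Rpl31 was represented by a feature on another chromosome and lost its call without LD replicate 2 or HD replicate 5. Of the 22 that rose as deposited, 7 were not called after scaling on control features and 8 were lower there: Rpl19, Rpl35, Rpl41, Rplp0, Rps3a1, Rps3a2, Rps3a3 and Rps7. Rpl11 and Rpl10l were called higher after both quantile normalization and control scaling. Of all calls, 61.7% were higher as deposited against 72.1% under either of those 2 scalings.

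**Figure D3:**
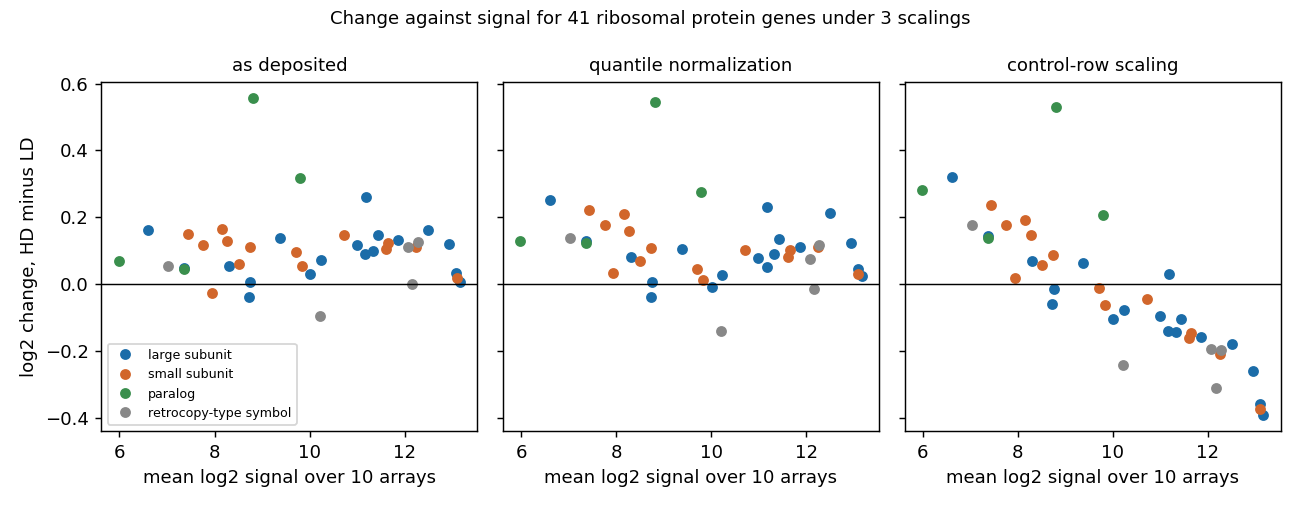
Log2 change from LD to HD (vertical) against the mean log2 signal over 10 arrays (horizontal) for the 41 genes, as deposited, after quantile normalization and after rescaling on control features, coloured by class. The correlation of change with signal over the core genes is 0.036 and -0.23 (Pearson) in the first 2 panels, and in the third the change falls with signal, with Rps27l and Rpl7l1 above genes of like signal.

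Other genes of the pathway were compared from lists of known function. Ribosomal proteins that carry other names gave Rpsa, a small-subunit protein, which rose by 0.13 (adjusted p = 0.0091; -0.15 and lower after control scaling), and Fau, which yields Rps30, at -0.10 and not called as deposited but lower after control scaling (-0.40). Rack1 had no single-gene feature. Of 18 tested genes listed as elongation factors or as genes with TOP messages, 6 rose and 2 fell, around a median of 0.047. Over all genes, 31.4% rose and 19.5% fell around a median of 0.055. The highest was Eef1e1 at 0.67 (1.59-fold), counted among the 6 by its name. Eef1e1 is a protein of the aminoacyl-tRNA synthetase complex and not an elongation factor. Eif5a followed at 0.25. The lowest was the initiation factor Eif4b at -0.32. Eef2, the translocase, fell by 0.095, and Eef1a1 at -0.033 was not called. After control scaling 2 of these genes were higher and 8 lower, where 49.4% of all genes were higher and 19.1% lower.

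Chaperones of ribosomal proteins, listed together with other assembly and export factors of the ribosome, formed the list with the fullest count. All 14 of 14 chaperones and assembly partners rose, with a median of 0.41, and all 14 were also higher after control scaling, where 31.4% of all genes rose as deposited and 49.4% after that scaling. Rpf2, which with Rrs1 brings in Rpl5 and Rpl11 with 5S rRNA, rose most, by 0.69 (1.61-fold), and Rrs1 by 0.49. Ltv1, a small-subunit assembly factor, rose by 0.62, Nmd3, the export adaptor of the large subunit, by 0.48, and Grwd1, the Rpl3 chaperone, by 0.45. Pdcd2l rose least, by 0.14. Each of the 14 changes exceeded the 0.10 median of the ribosomal protein genes, and this difference was not tested.

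Of 38 tested ribosome biogenesis factors, 37 rose and none fell by limma (median 0.42), led by Pno1 at 0.91, and 35 were higher after control scaling. Of 75 mitochondrial ribosomal proteins, 66 rose and 1 fell (median 0.25), from Mrpl20 at 0.69 (1.61-fold) to Mrpl24 at -0.26, and 69 were higher after control scaling. The shares of all genes called higher were 31.4% as deposited and 49.4% after control scaling. Both medians lay above the 0.10 of the cytosolic set in the same fit, again without a test of the difference. A list of regulators joined genes that act on ribosomal protein messages with Mdm2, Zfp598 and Ltn1, which are not regulators of those messages. Of its 18 tested genes, 8 rose, Zfp598 and Ltn1 among them, and 2 fell, with a median of 0.060. The values over all genes were 31.4%, 19.5% and 0.055. Eif4e, the cap-binding factor, rose most, by 0.39, Larp1 by 0.25 and Myc by 0.20, and after control scaling these stood at 0.22, 0.083 and 0.011, with only Eif4e of the 3 still called. There, 5 of the 18 were higher and 4 lower, against 49.4% and 19.1% of all genes. Ddit4, an inhibitor of mTORC1, fell by 1.69 (3.22-fold), and Tsc1, another inhibitor, by 0.25, whereas the inhibitor Deptor rose by 0.30 (adjusted p = 2.8e-05) and Tsc2 was not called at -0.099. Mtor itself was at 0.031 and not called.

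**Figure D4:**
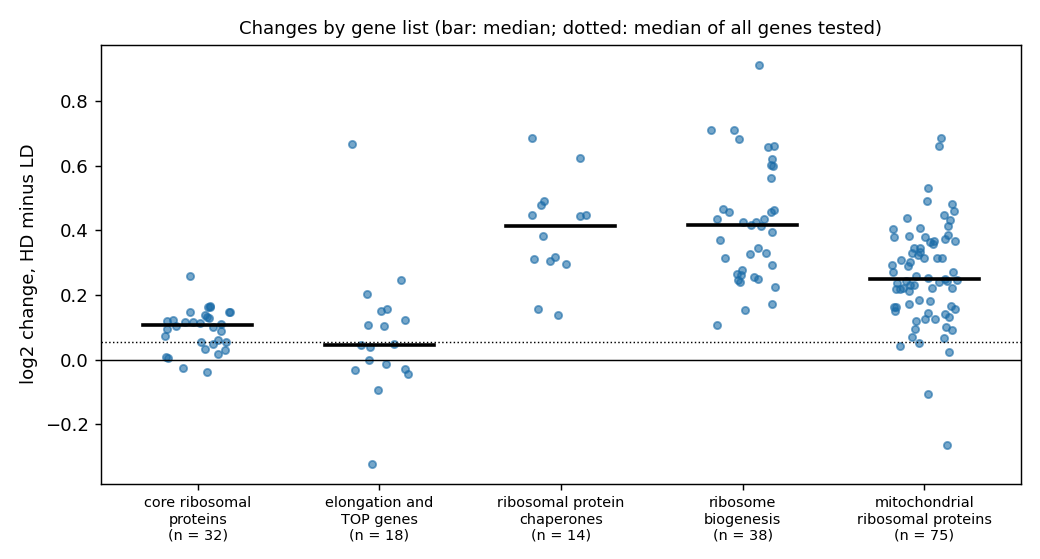
Log2 change from LD to HD as deposited for each tested gene of 5 lists (points, spread sideways only to separate them), with the median as a bar and the median of all genes tested as a dotted line. The 32 core ribosomal proteins sit near 0.11, the chaperones and biogenesis factors near 0.41 and 0.42, and the mitochondrial ribosomal proteins at 0.25; after control scaling the core genes stood at -0.061, and the other lists but the TOP genes (-0.12) above 0.

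Over the 17800 genes, correlations between arrays were 0.9961 to 0.9983 within groups and 0.9835 to 0.9932 between them. The 8 epithelial markers were all above the floor, and 1 rose and 4 fell (31.4% and 19.5% of all genes), with mean signals of 9.67 to 9.71 in LD and 9.45 to 9.52 in HD. Of 5 fibroblast markers with a feature, 3 were above the floor and 1 rose (means 4.89 to 5.01 and 4.95 to 5.12). Of 5 leukocyte markers, 2 were above it, Cd68 at -0.74 and Cd3e at 0.16, with Ptprc at 3.09 in LD (list means 5.11 to 5.15 and 5.02 to 5.11). None of 4 endothelial markers reached it (4.29 to 4.42 and 4.39 to 4.46). The part of other cell types in the ribosomal protein changes was not tested.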

How the data were processed

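The deposited table holds 1 log2 value per feature and array, deposited by the authors after RMA, as the submitters' processing notes name it. The software version, annotation release and build were not given in the sources used here. Values ran from 1.49 to 14.3. Arrays have no read depth, so the number of arrays, 5 a group, limits the precision.

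Symbols came from the platform annotation (30604 features with 1 symbol) and were updated by gene ID from RefSeq (GRCm38.p6, 22818 features matched). Each gene was represented by its brightest feature and tested if that lay above a mean log2 signal of 5.24. HD minus LD was fitted with limma 3.58.1 (R 4.3.3; lmFit, eBayes), two-sided, with Benjamini-Hochberg adjustment over 17800 genes and a threshold of 0.05. Errors are SDs over arrays or moderated SEs, and folds are ratios of RMA signals. In simulated data for the 17800 genes, only a small share of genes was given a change. There the fit recovered 0% of log2 changes of 0.1, 72% of 0.25 and 94% of 0.5, with 5.67% of calls false. In the real data 31.4% of genes were called higher and 19.5% lower. The adjusted threshold was therefore stricter in the simulation, and its shares do not carry over to these data.

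The members and lists were chosen with earlier results of these data known, so their counts stand beside those of all genes, with no test over a list. Full values were given for the 6 highest and 6 lowest tested genes, Rplp0, Rpl11, Rps19 and paralog pairs, with Rps26 added with its values in view, and list genes were named by highest and lowest called change, while further list genes were picked with their values in view. Alternatives were 3 other scalings, a replicate block, other floors, other features per gene, other variance models and leaving out each array. Start-region sequences came from RefSeq's promoter table. No scanner file or scan date was used here, so batches were not examined.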

Additional observations from a re-analysis of the deposited data

Results flagged for a closer look

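Each gene's 5 values in a group were screened for a highest or lowest array whose gap to its neighbour took more than 0.71 of the group's range (Dixon's 95% value for 5 arrays). This was met in 5 of 82 groups, and chance alone gives about 1 in 20. In LD, Rpl11 was low on replicate 5, at 7.30 against 7.35 to 7.36 on the other arrays, and Rps29 was low on replicate 4, at 11.50 against 11.57. HD replicate 2 held the other three: Rpl38 was high, at 11.53 against 11.32 to 11.36, Rpl39 was high, at 9.53 against 9.42 to 9.43, and Rpl6l was low, at 10.02 against 10.17 to 10.22. Without that array Rpl6l was at -0.0585, and Rpl39 rose by 0.118 (limma adjusted p = 0.013).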

How the results depend on the processing

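As deposited, 22 of 41 genes were higher, none was lower and the median log2 change was 0.10. Scaling on control features gave 9 higher, 15 lower and a median of -0.060. Quantile normalization gave 20 higher and 1 lower, with a median of 0.103 beside 0.090 for all genes. All other settings stayed within 1.5 times of 22 higher with none lower: 20 with the replicate block, 18 with median centring, 19 with no floor, 23 with a stricter floor, 22 with the average or the dimmest feature, 23 with trended and robust variances, 20 with array weights, 20 of 37 with own-chromosome features, and 17 to 21 (medians 0.091 to 0.11) with 1 array left out. Same-numbered arrays of LD and HD deviated with correlations of 0.19, -0.091, -0.036, 0.22 and -0.025, so the numbers were not taken as pairs; under the replicate block Rplp0 and Rps20 were not called. With no floor Rplp0, Rps20 and Rps24 lost their call, and with array weights Rplp0 and Rps7 did. Of the 22 genes, 15 kept their call without any 1 array. Changes turned sign under control scaling for Rpl10a -0.097, Rpl12 -0.36, Rpl19 -0.158, Rpl32l -0.312, Rpl35 -0.18, Rpl37a -0.103, Rpl38 -0.143, Rpl4 -0.393, Rpl41 -0.261, Rpl7 -0.016, Rpl7a -0.0777, Rpl8 -0.104, Rplp0 -0.14, Rps15 -0.0445, Rps20 -0.0109, Rps26 -0.375, Rps28 0.0188, Rps29 -0.162, Rps3a1 -0.147, Rps3a2 -0.197, Rps3a3 -0.195, Rps4x -0.0625 and Rps7 -0.209. They did so under quantile normalization for Rpl32l -0.0152, Rpl37a -0.0104 and Rps28 0.0317, under median centring for Rpl32l -0.000606 and under array weights for Rpl32l -0.00789, Rpl4 -0.00356, Rpl7 -0.00437 and Rps26 -0.0112. With 1 array left out the genes that turned sign ranged as follows: Rpl22l1 -0.0116 to 0.112, Rpl32l -0.025 to 0.0253, Rpl37a -0.0162 to 0.0512, Rpl4 -0.00953 to 0.0219, Rpl7 -0.00642 to 0.028, Rps26 -0.0139 to 0.0422 and Rps28 -0.0584 to 0.0014. For control scaling the turn follows from its construction, since the control span was 3.86 in HD and 3.55 in LD; the cause of the other turns was not tested. With 5 arrays a group, the median SE of a change was 0.038 log2 units.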

Other observations

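Features outside the set measured related sequences. The 53 features that name several symbols, at least 1 of them a ribosomal protein, had a median log2 change of 0.099 (-0.077 to 0.25), with 49 above 0 and no overlap between groups for 23. The 194 features of ribosomal protein pseudogene symbols had a median of 0.091 (-0.075 to 0.26), with 174 above 0 and no overlap for 37. Over all genes tested, 63.0% of changes were above 0 and 36.7% of genes had groups without overlap. The share without overlap was thus smaller among the 194 features than over all genes, and larger among the 53. Both kinds of feature were summarized as deposited only, so their changes after control scaling were not examined. Of the 194, 119 had a mean signal of at least 10, with a median of 0.083. The 41 tested genes had a median of 0.10, and the 3 medians were not compared by a test. Which transcripts the pseudogene features measure was not tested.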
